A study of Sus scrofa with 12 samples.

Results

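Collagens are the triple-helical proteins that give the extracellular matrix its strength, and the genes described here are those encoding collagen chains in cultured porcine aortic valve interstitial cells (paVICs). Members were all genes of the count table whose symbol has the form COL, a type number, A and a chain number, with a sum of at least 120 counts over the 12 libraries. Of 31908 genes in the table, 39 carried such a symbol and 26 reached the sum: 8 fibrillar, 3 basement membrane, 5 FACIT, 4 beaded filament and 6 other collagens. The last members inside the limit were COL17A1 with a sum of 132 counts and COL9A3 with 151, and the first outside it were COL23A1 with 106 and COL6A5 with 98. Of the 13 genes left out, 3 (COL11A2, COL19A1 and COL22A1) had no count in any library. All 26 members passed the filter on low counts and were tested among 13216 genes. Genes for the chains COL4A1 and COL24A1 stand in the table without a symbol and were named only through a separate table of gene names, so they are not members.

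Cells of wild-type pigs were kept for 24 h in low-serum medium with 1 of 4 treatments, with 3 libraries of mRNA per group. The groups were vehicle control, 10 μM lysophosphatidylcholine (LPC, a bioactive phospholipid), 60 μM dantrolene (a drug that blocks the ryanodine receptor, a calcium release channel), and LPC + dantrolene. Every group, the vehicle control included, held DMSO and ethanol as solvents, given in the labels as 0.6% DMSO in the groups without dantrolene and 0.1% ethanol in the groups without LPC. Replicates were independent primary isolations, each from pooled valves of several hearts, with 1 library of each isolation in every group. Each isolation was treated on a day of its own, so isolation and day cannot be told apart. The study asked how blocking calcium release changes the response of these cells to LPC.

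Collagen chains are made as procollagens that assemble as trimers in the endoplasmic reticulum, are hydroxylated on proline and lysine, and are trimmed and cross-linked after export. Fibrillar collagens, chiefly types I and III, form the load-bearing fibrils of the valve's fibrous layer, and types V and XI sit inside such fibrils. Type IV builds the sheets of basement membranes, FACIT collagens decorate the surface of fibrils, and type VI forms beaded filaments around cells. Interstitial cells are the main source of collagen in the valve leaflet.

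Total counts ranged from 16489684 to 24105935 per library. The label of the cells was compared with marker genes: all 8 interstitial cell or fibroblast markers were present and summed to between 20940 and 39449 CPM (counts scaled to a common library size by TMM). FN1 and VIM led this sum, at means of 22456 and 9374 CPM in vehicle, where PDGFRA was at 175, DCN at 171, LUM at 108 and S100A4 at 40.0 CPM. The 4 myofibroblast or smooth muscle markers, ACTA2 among them, summed to between 9140 and 33769 CPM. The 5 endothelial markers stayed between 41.8 and 76.1 CPM. The 5 leukocyte markers stayed between 12.4 and 28.5 CPM, with PTPRC and CD3E at 0 in every library, and the 3 cardiomyocyte markers found at 0.717 CPM or less. The endothelial sum was 72.6 to 76.1 CPM in vehicle and 41.8 to 63.8 CPM in the treated libraries, with no overlap, and 4 chondrocyte markers summed to between 23.2 and 60.6 CPM. Of all these markers, LUM was called higher in each treated group against vehicle (log2 fold change 1.35 with LPC, 1.59 with dantrolene and 1.35 with both) and CDH5, an endothelial gene, lower with dantrolene (−1.20, called in 15 of 19 alternatives). Their part in the collagen values was not tested. One library stood apart: LPC + dantrolene of isolation 2 had a mean correlation of 0.909 with its own group, against 0.937 to 0.974 for the other libraries. The samples are bulk RNA, so fewer cells of a type and less RNA per cell cannot be told apart.

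Collagen genes held many of the counts of these libraries. COL1A2 held the most counts of any gene over the 12 libraries, COL1A1 was at rank 3 and COL3A1 at rank 7. The 26 collagens together held 8.08% ± 0.470 (SD, n = 3) of all counts in vehicle, 7.44% ± 1.15 with LPC, 6.93% ± 1.11 with dantrolene and 8.30% ± 0.448 with LPC + dantrolene. The lowest shares were those of the dantrolene library of isolation 2 (5.91%) and the LPC library of isolation 2 (6.12%), and the highest was that of the LPC + dantrolene library of isolation 2 (8.82%). Ranges of these shares of total counts overlapped between vehicle (7.77% to 8.62%) and every treated group. On TMM-scaled library sizes the dantrolene libraries all lay below the vehicle libraries, and the LPC + dantrolene mean lay below the vehicle mean. Fibrillar chains made up most of this: 78.0% ± 3.99 of the collagen counts in vehicle, 77.6% ± 5.17 with LPC, 76.1% ± 3.55 with dantrolene and 77.0% ± 3.11 with LPC + dantrolene. Type VI took the next largest part, between 12.1% ± 3.92 of collagen counts with LPC and 15.1% ± 3.39 with LPC + dantrolene. These are shares of counts that the authors had adjusted for batch, which also depend on transcript length.

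Few collagen genes were called in any comparison, which by itself does not set them apart from other genes. Each count stands beside the share of all genes called. Where the libraries of groups are said not to overlap, no such share was counted, so these statements are descriptions only. Calls were made with edgeR's quasi-likelihood test where the p adjusted by Benjamini-Hochberg over the 13216 genes was under 0.05. With LPC, none of the 26 collagens was called compared to vehicle control, while 8.69% of all genes tested were. With dantrolene, COL6A6 was higher and COL8A2 lower than in vehicle, which is 2 of 26 against 8.8% of all genes. With LPC + dantrolene, none was called against vehicle, where 7.14% of all genes were. Against LPC alone, LPC + dantrolene lowered COL11A1 only, against 0.507% of all genes called. LPC + dantrolene against dantrolene called no collagen (0.0227% of all genes), nor did dantrolene against LPC (0.325%) or the interaction (4.65%), the log2 effect of LPC in cells given dantrolene less that in cells without it.

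In the 5 comparisons with no called collagen, an unadjusted p under 0.05 was reached by 2 members for LPC against vehicle, 3 for LPC + dantrolene against vehicle, 0 for LPC + dantrolene against dantrolene, 5 for dantrolene against LPC, and 3 for the interaction. DESeq2's Wald test called no collagen in these 5 comparisons. Over all genes tested, the shares with an unadjusted p under 0.05 were 15.9%, 14.5%, 1.28%, 4.40% and 14.5%, in the same order. For dantrolene against vehicle, 4 members reached it (15.4%, beside 16.2% of all genes). For LPC + dantrolene against LPC, 5 members did (19.2%, beside 6.61% of all genes). The median standard error of a member's log2 fold change was 0.33 in each comparison against vehicle, which limits what could be called with 3 libraries per group.

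Most members lay below 0 against vehicle on the TMM scale. Log2 fold changes were negative for 21 of 26 collagens with LPC (63.3% of all genes), for 21 with dantrolene (58.6%) and for 19 with LPC + dantrolene (58.1%). Their medians were −0.28, −0.40 and −0.12, beside −0.18, −0.11 and −0.08 over all genes tested. Scaling by total counts alone shifted the median of all genes by 0.17, 0.24 and 0.20, and left 15, 16 and 10 collagens below 0, so for LPC + dantrolene the balance of the collagens turned with the scaling. These 3 comparisons share the vehicle libraries.

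**Figure D1:**
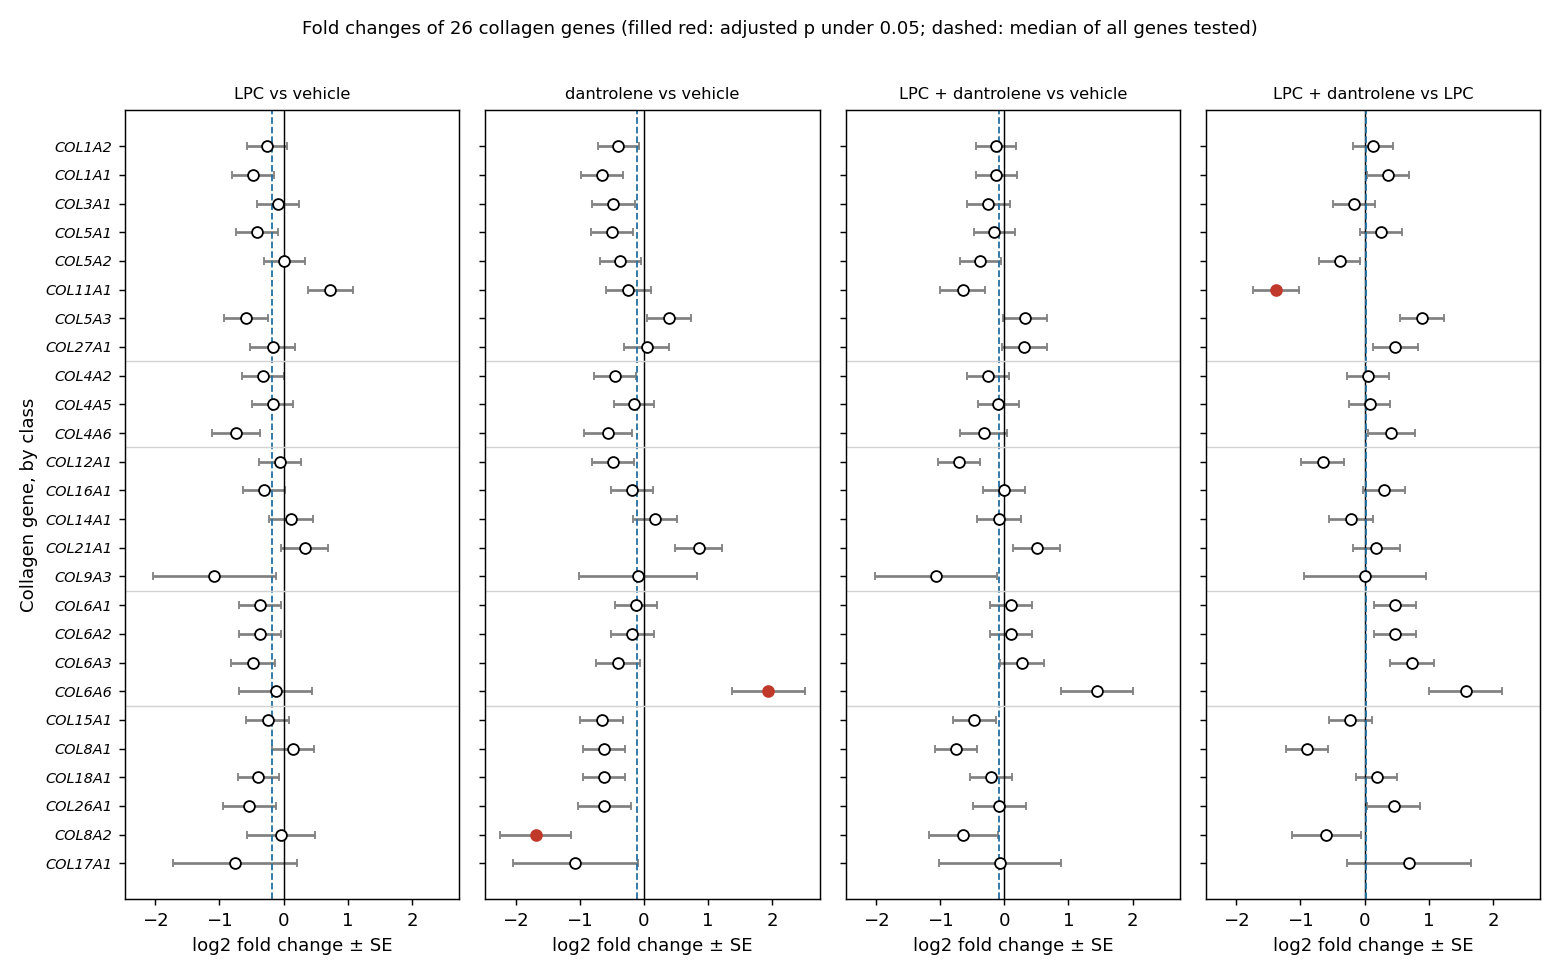
Log2 fold changes (x axis, with SE) of the 26 collagen genes (y axis, by class) in 4 comparisons from the edgeR fit of all libraries. Filled red points mark COL6A6 and COL8A2 with dantrolene against vehicle and COL11A1 with LPC + dantrolene against LPC, the genes with an adjusted p under 0.05; dashed lines show the median of all genes tested.

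Type I collagen, a trimer of COL1A1 and COL1A2 chains, is the main fibril-forming collagen of connective tissue. COL1A1 (ENSSSCG00000036135) spans 26379087 to 26397180 of chromosome 12 and COL1A2 (ENSSSCG00000015326) 74174484 to 74210407 of chromosome 9, as RefSeq gene spans of the Sscrofa11.1 build. In vehicle COL1A1 stood at 23664, 23417 and 21113 CPM in isolations 1, 2 and 3. It was at 18764, 8704 and 21404 CPM with LPC, at 19851, 10758 and 12811 CPM with dantrolene, and at 18125, 26646 and 17909 CPM with LPC + dantrolene. The 3 dantrolene libraries all lay below the 3 vehicle libraries, whereas the LPC and LPC + dantrolene ranges overlapped the vehicle range, and the LPC library of isolation 2 was the lowest of all. The log2 fold change of COL1A1 was −0.65 ± 0.33 (SE) with dantrolene (adjusted p = 0.303, edgeR) and −0.48 ± 0.33 with LPC (adjusted p = 0.543). With LPC + dantrolene it was −0.12 ± 0.32 against vehicle (adjusted p = 0.966; 0.058 on total counts) and 0.36 ± 0.33 against LPC (adjusted p = 0.939). None of these passed the test. Without the LPC library of isolation 2 the values for LPC against vehicle and for LPC + dantrolene against LPC were −0.18 and 0.054.

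COL1A2 stood at 15984, 28024 and 22405 CPM in vehicle, a spread wider than that of COL1A1. It was at 21330, 12573 and 21761 CPM with LPC, at 16277, 17749 and 16361 CPM with dantrolene, and at 19258, 24101 and 17511 CPM with LPC + dantrolene. All 3 treated ranges overlapped the vehicle range, and the dantrolene libraries were the closest to each other. The log2 fold changes against vehicle were −0.25 ± 0.32 with LPC (adjusted p = 0.719), −0.40 ± 0.32 with dantrolene (adjusted p = 0.630) and −0.13 ± 0.32 with LPC + dantrolene (adjusted p = 0.962), where total counts gave 0.070.

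COL3A1 encodes the single chain of type III collagen, which co-assembles with type I in pliable tissues. It stood at 11610, 12018 and 14671 CPM in vehicle, at 8812, 12576 and 14682 CPM with LPC, at 12775, 6910 and 7870 CPM with dantrolene, and at 7307, 17028 and 7902 CPM with LPC + dantrolene. In the last group isolation 2 stood far above the other libraries and was the highest of the 12 libraries, and the ranges of all groups overlapped. The log2 fold changes against vehicle were −0.09 ± 0.33 with LPC (adjusted p = 0.906; 0.073 on total counts), −0.48 ± 0.33 with dantrolene (adjusted p = 0.556) and −0.25 ± 0.33 with LPC + dantrolene (adjusted p = 0.905). Without the isolation 2 library the last of these became −0.69 ± 0.30 (adjusted p = 0.121).

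**Figure D2:**
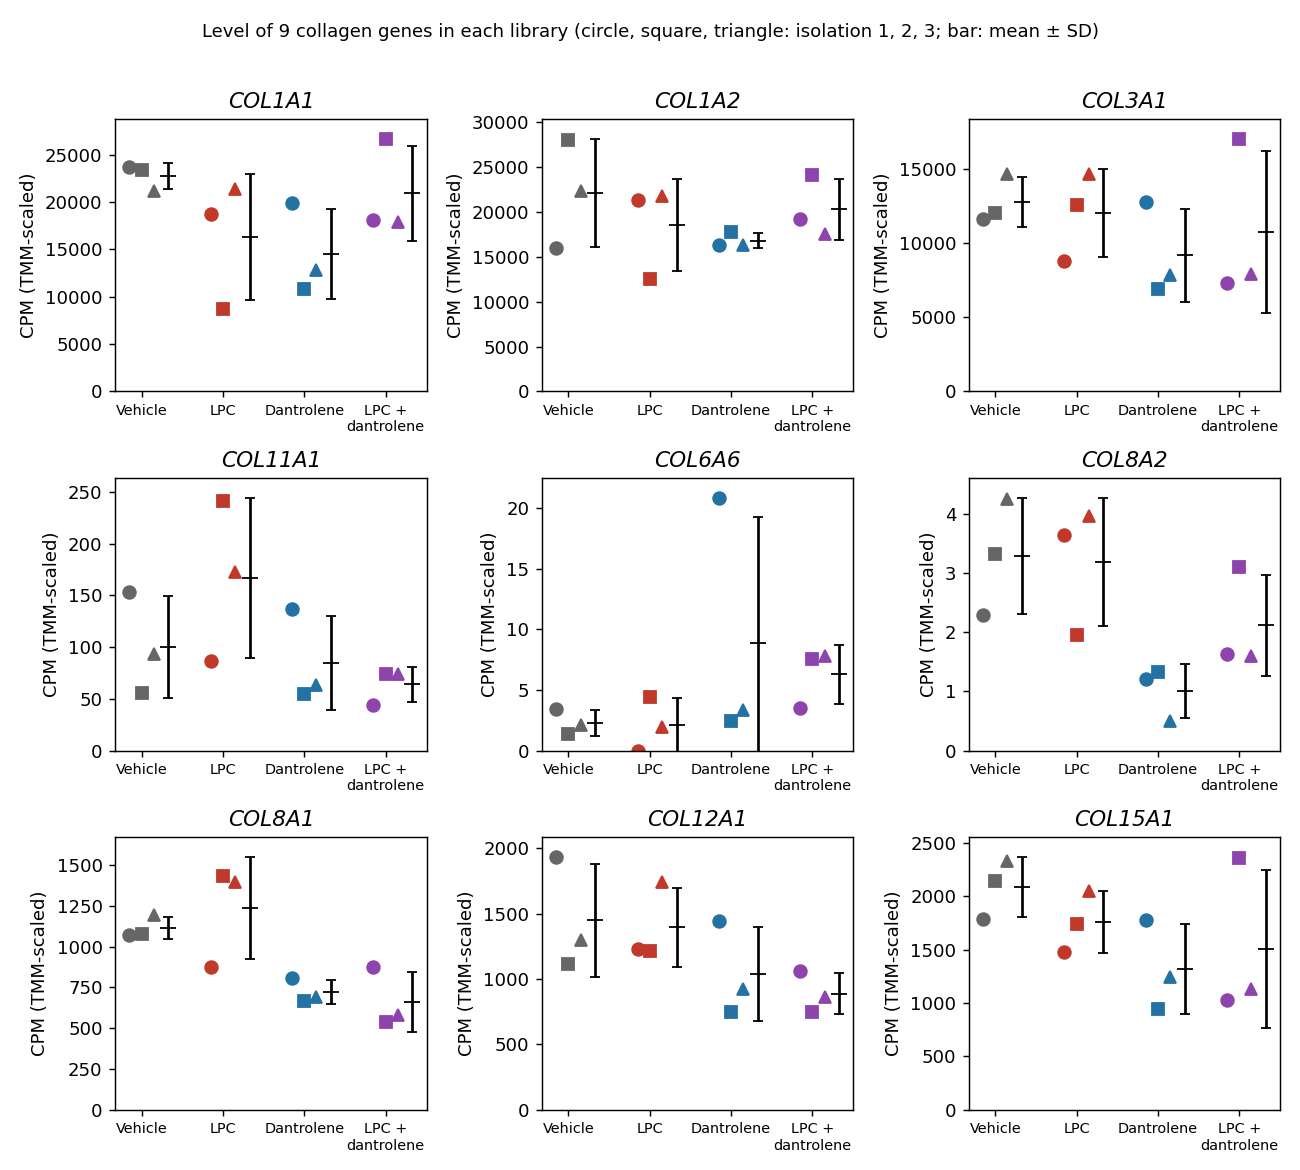
Level of 9 collagen genes (y axis, CPM on TMM-scaled library sizes) in each library of the 4 groups (x axis); bars show mean ± SD of 3 libraries, and where the SD of COL6A6 exceeds its mean the bar is cut at 0. COL1A1, COL8A1, COL8A2 and, by a narrow margin, COL15A1 lie lower in all 3 dantrolene libraries than in all 3 vehicle libraries. Of these only COL8A2 was called. Among members not drawn, COL5A1, COL5A2, COL18A1 and COL26A1 separated in the same way and were not called. The share of all genes tested that separate so was not counted. The COL6A6 level of the dantrolene library of isolation 1 (20.8 CPM) stands alone.

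Among the minor fibrillar chains, COL11A1 was the one that differed. It encodes a chain of type XI collagen, a regulator of fibril diameter best known from cartilage, and the gene (ENSSSCG00000006857) lies on chromosome 4 at 115638381 to 115841679. Its levels were 86.2, 241 and 172 CPM with LPC and 44.4, 74.1 and 73.7 CPM with LPC + dantrolene, so every LPC + dantrolene library lay below every LPC library. The vehicle libraries, at 153, 55.2 and 93.4 CPM, and the dantrolene libraries, at 137, 54.3 and 63.6 CPM, overlapped both. COL11A1 fell by 1.38 ± 0.36 on the log2 scale with LPC + dantrolene compared to LPC (adjusted p = 0.0464, edgeR). The call was narrow: with the isolation as a block the adjusted p was 0.216 (log2 fold change −1.39), in DESeq2 it was 0.153, and without the LPC library of isolation 2 the value was −1.02 (adjusted p = 0.700). Against vehicle the log2 fold change of COL11A1 was 0.73 ± 0.35 with LPC (adjusted p = 0.281) and −0.65 ± 0.35 with LPC + dantrolene (adjusted p = 0.418).

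The remaining fibrillar chains were COL5A1, COL5A2, COL5A3 and COL27A1, of which type V chains help to start type I fibrils. None was called in any comparison. Over the 8 fibrillar genes the log2 fold changes ran from −0.58 to 0.73 with LPC (6 below 0, or 4 on total counts), from −0.65 to 0.40 with dantrolene (6 below 0 on both scales), and from −0.65 to 0.32 with LPC + dantrolene (6 below 0, or 3 on total counts). COL5A3, chosen after its values were seen, stood at 19.7, 21.7 and 22.6 CPM with LPC, below all 9 libraries of the other groups, which held 23.8 to 64.9 CPM. Its log2 fold changes were 0.90 ± 0.34 for LPC + dantrolene against LPC (adjusted p = 0.423) and 0.97 ± 0.34 for dantrolene against LPC (adjusted p = 0.425), neither past the threshold.

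Of the basement membrane collagens, COL4A2 had the most counts and encodes a chain of the type IV trimer found in all basement membranes. Its levels were 2507, 2687 and 2709 CPM in vehicle, 2476, 1559 and 2306 CPM with LPC, 2643, 1262 and 1902 CPM with dantrolene, and 1902, 2711 and 1992 CPM with LPC + dantrolene. The LPC libraries all lay below the vehicle libraries by a narrow margin, and the other 2 groups overlapped vehicle. No type IV gene was called in any comparison: all 3 members had negative log2 fold changes against vehicle in each treatment (2 of 3 on total counts), with medians of −0.32, −0.44 and −0.26 for LPC, dantrolene and LPC + dantrolene. COL4A5 and COL4A6, the other members, encode chains of more restricted basement membranes.

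The COL4A2 gene lies on chromosome 11 at 76996885 to 77161617 and its span overlaps that of COL4A1, its partner chain, by 525 bases. How the counting treated reads there was not given in the sources used here. COL4A1 stood at 2009, 1714 and 1797 CPM in vehicle, 1180, 1205 and 1564 CPM with LPC, 1688, 756 and 1166 CPM with dantrolene, and 1043, 2211 and 1277 CPM with LPC + dantrolene. Both the LPC and the dantrolene libraries lay below all vehicle libraries, and the gene was not called in either comparison (adjusted p = 0.553 and 0.378). Neighbouring collagen genes were also found on chromosome 15, where COL3A1 and COL5A2 are 16177 bases apart, and on chromosome X, where COL4A6 and COL4A5 are 207898 bases apart.

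FACIT collagens were led by COL12A1, whose product binds to type I fibrils and is known for its response to tensile load. It stood at 1931, 1112 and 1301 CPM in vehicle, 1227, 1218 and 1746 CPM with LPC, 1446, 749 and 923 CPM with dantrolene, and 1058, 746 and 861 CPM with LPC + dantrolene. All LPC + dantrolene libraries lay below all vehicle and all LPC libraries. The log2 fold changes were −0.70 ± 0.33 against vehicle (adjusted p = 0.282) and −0.65 ± 0.33 against LPC (adjusted p = 0.768), and the gene was not called. COL21A1, a FACIT of low count chosen after its values were seen, was higher in all 3 dantrolene libraries (13.1, 11.3 and 12.7 CPM) than in all 3 vehicle libraries (9.87, 5.72 and 4.88 CPM), at a log2 fold change of 0.85 ± 0.37 (adjusted p = 0.174). With the LPC + dantrolene library of isolation 2 left out of the fit, its adjusted p was 0.0369.

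Type VI collagen forms a microfibrillar network next to the cell, and its common trimer holds the chains of COL6A1, COL6A2 and COL6A3. COL6A1 had the most counts of this class and stood at 6078, 4885 and 4946 CPM in vehicle. It was at 4009, 4625 and 3684 CPM with LPC, at 6538, 2881 and 5216 CPM with dantrolene, and at 4088, 7053 and 6027 CPM with LPC + dantrolene. Every LPC library lay below every vehicle library, and the dantrolene and LPC + dantrolene ranges overlapped vehicle. COL6A1, COL6A2 and COL6A3 were not called in any comparison. All 4 type VI genes had negative log2 fold changes with LPC against vehicle (3 of 4 on total counts), between −0.47 and −0.13, and positive ones with LPC + dantrolene against LPC on both scales, between 0.47 and 1.57 on the TMM scale. Without the LPC + dantrolene library of isolation 2 the latter lay between 0.18 (COL6A2) and 1.40 (COL6A6).

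COL6A6, which encodes a chain that can stand in for the COL6A3 chain, was the member called higher with dantrolene. The gene (ENSSSCG00000037430) lies on chromosome 13 at 1817475 to 1985968. Its counts were 72, 23 and 36 in vehicle, 0, 81 and 38 with LPC, 380, 65 and 61 with dantrolene, and 66, 122 and 156 with LPC + dantrolene, which are 3.43, 1.34 and 2.09 CPM, 0, 4.40 and 1.95 CPM, 20.8, 2.48 and 3.33 CPM, and 3.47, 7.58 and 7.82 CPM. The dantrolene library of isolation 1 was far above every other library, and the other 2 dantrolene libraries lay within the vehicle range. The fitted log2 fold change with dantrolene was 1.94 ± 0.56 (adjusted p = 0.0153, edgeR). Without the dantrolene library of isolation 1 it was 0.39 (adjusted p = 0.864), with the isolation as a block it was 1.83 (adjusted p = 0.15), and DESeq2 gave an adjusted p of 0.495. With LPC + dantrolene all 3 libraries lay above all vehicle libraries, at 1.45 ± 0.56 (adjusted p = 0.122).

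**Figure D3:**
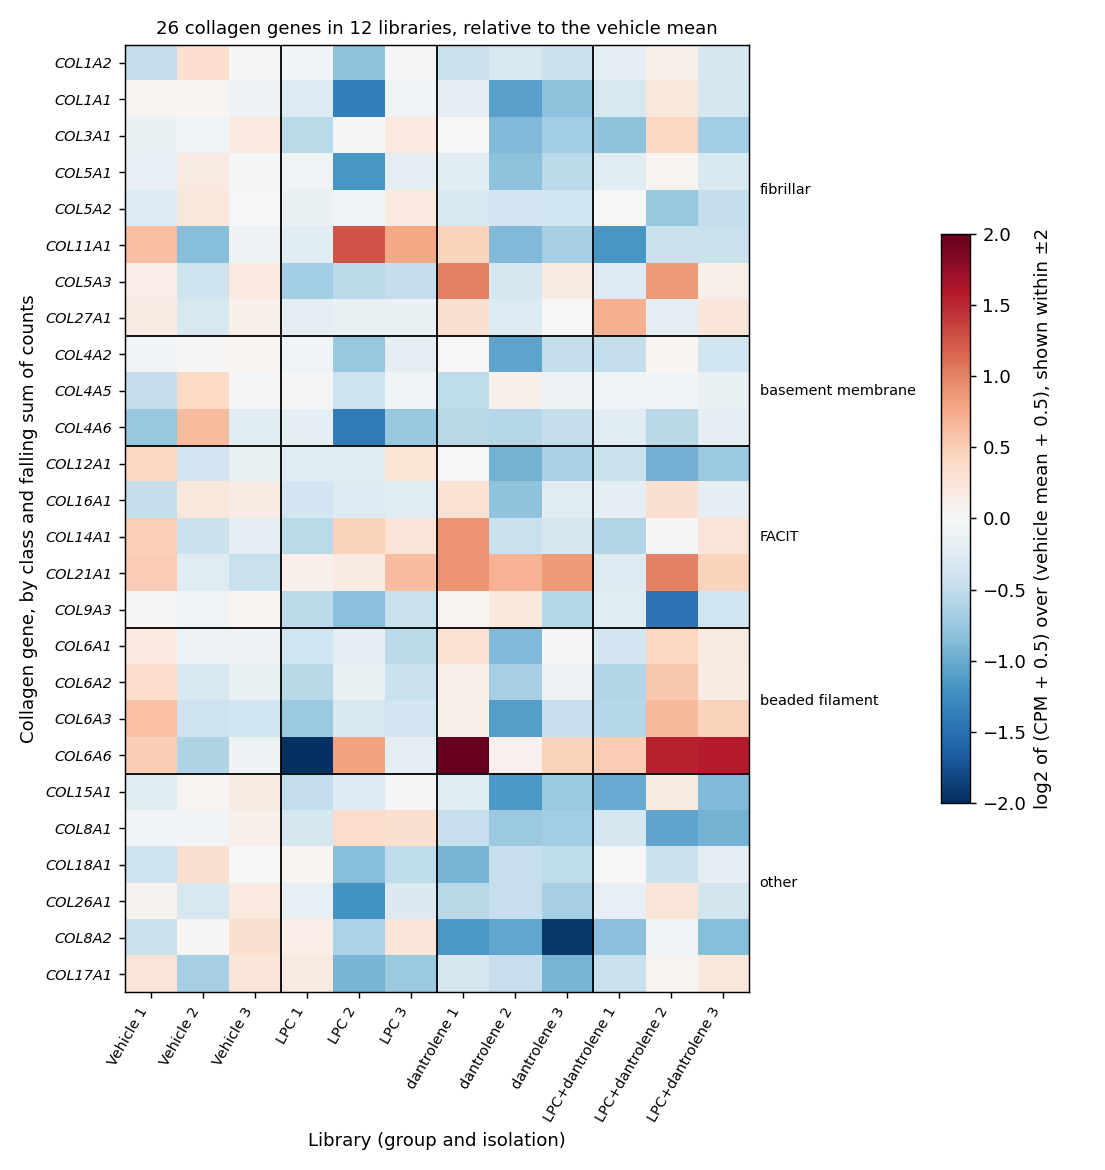
Levels of the 26 collagen genes (rows, by class) in the 12 libraries (columns, by group and isolation), as log2 of CPM + 0.5 over the vehicle mean + 0.5, with the colour scale limited to ±2. The dantrolene columns change from isolation 1 to isolation 2 across many rows: within that group isolation 1 is the highest for 19 of 26 genes and isolation 2 the lowest for 18.

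Among the other collagens, COL15A1 had the most counts and encodes a multiplexin of the basement membrane zone. It stood at 1784, 2143 and 2330 CPM in vehicle, 1477, 1738 and 2053 CPM with LPC, 1778, 946 and 1243 CPM with dantrolene, and 1032, 2360 and 1128 CPM with LPC + dantrolene. The dantrolene libraries lay below the vehicle libraries, by a narrow margin for isolation 1, and the other ranges overlapped. COL15A1 was not called, with a log2 fold change of −0.47 ± 0.33 with LPC + dantrolene (adjusted p = 0.662). The isolation 2 library decided that value: without it COL15A1 was at −0.89 ± 0.30 (adjusted p = 0.0333), the one collagen then called with LPC + dantrolene against vehicle.

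COL8A2, a chain of the hexagonal network-forming type VIII collagen known from the vessel wall and the cornea, was the member called lower with dantrolene. The gene (ENSSSCG00000033641) lies on chromosome 6 at 92246047 to 92272046. Its counts were low, at 48, 57 and 73 in vehicle, 71, 36 and 77 with LPC, 22, 35 and 9 with dantrolene, and 31, 50 and 32 with LPC + dantrolene. In CPM these are 2.29, 3.33 and 4.24 in vehicle, 3.64, 1.95 and 3.96 with LPC, 1.20, 1.33 and 0.491 with dantrolene, and 1.63, 3.11 and 1.60 with LPC + dantrolene. Every dantrolene library lay below every other library. COL8A2 fell by 1.68 ± 0.55 on the log2 scale with dantrolene compared to vehicle (adjusted p = 0.0380, edgeR), to 0.311 of the vehicle level. DESeq2 also called it (adjusted p = 0.0361), while the isolation as a block gave −1.70 (adjusted p = 0.0950) and total counts −1.44 (adjusted p = 0.105). With LPC + dantrolene the log2 fold change was −0.64 ± 0.53 (adjusted p = 0.762), and the interaction was 1.09 ± 0.76 (adjusted p = 0.563).

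The partner chain of type VIII, COL8A1, was chosen after its values were seen. It stood at 1073, 1077 and 1193 CPM in vehicle and 875, 1434 and 1396 CPM with LPC, against 806, 668 and 690 CPM with dantrolene and 874, 535 and 579 CPM with LPC + dantrolene. All 6 libraries with dantrolene lay below all 6 without it, for isolation 1 of LPC and of LPC + dantrolene by less than 1 CPM. How many of all genes tested separate in this way was not counted. The log2 fold changes were −0.63 ± 0.33 for dantrolene against vehicle (adjusted p = 0.333) and −0.90 ± 0.33 for LPC + dantrolene against LPC (adjusted p = 0.355), and neither passed the test. With dantrolene against vehicle all 6 genes of the other class had negative log2 fold changes, on TMM and on total counts, with a median of −0.64. On the TMM scale 58.6% of all genes lay below 0 there. Against vehicle, 6 of the 6 were also negative with LPC + dantrolene (3 on total counts) and 5 with LPC (4 on total counts). The other class joins collagens of different kinds.

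The spread between isolations differed from gene to gene. The median coefficient of variation of a collagen gene between the 3 libraries of a group was 24.6% in vehicle, 25.0% with LPC, 33.6% with dantrolene and 27.6% with LPC + dantrolene. The steadiest genes were COL4A2 in vehicle (4.20%), COL27A1 with LPC (1.96%), COL5A2 with dantrolene (2.63%) and COL4A5 with LPC + dantrolene (2.89%). COL6A6 varied most with LPC (104%) and dantrolene (117%), COL17A1 most in vehicle (53.4%) and COL9A3 most with LPC + dantrolene (88.1%), all genes of low count. Within LPC + dantrolene the isolation 2 library held the highest level of 16 of the 26 genes.

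Ratios of the counts of paired chains were followed in each library, where the scaling to library size cancels. COL3A1 and COL1A1 belong to different collagen types, whereas the other pairs are chains of the same type. The counts had been adjusted for batch by the authors, and an effect of that on the ratios was not tested. COL1A1 to COL1A2 was 1.09 ± 0.346 (SD, n = 3) in vehicle, 0.852 ± 0.148 with LPC, 0.870 ± 0.316 with dantrolene and 1.02 ± 0.0822 with LPC + dantrolene. COL6A1 to COL6A2 hardly moved between groups, with means of 1.36 ± 0.171, 1.34 ± 0.119, 1.35 ± 0.184 and 1.37 ± 0.157 in the same order. COL3A1 to COL1A1 was 0.566 ± 0.112 in vehicle, 0.633 ± 0.0165 with dantrolene and 0.494 ± 0.127 with LPC + dantrolene, and 0.867 ± 0.512 with LPC, where the library of isolation 2 alone reached 1.44. COL5A1 to COL5A2 ranged widest, from 0.752 in the LPC library of isolation 2 to 2.86 in the LPC + dantrolene library of isolation 2, with 1.64 ± 0.105 in vehicle. COL4A1 to COL4A2 lay between 0.617 ± 0.0202 with dantrolene and 0.701 ± 0.0879 in vehicle.

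The 6 ratios compared in pairs of groups gave 36 two-sided exact permutation tests, in which 3 libraries against 3 cannot give a p below 0.1. One test reached 0.1, that of COL6A3 to COL6A2 in LPC + dantrolene (0.537 ± 0.0564) against dantrolene (0.403 ± 0.0648), a ratio added after its values were seen. All p-values adjusted over the 36 tests were at least 0.947.

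**Figure D4:**
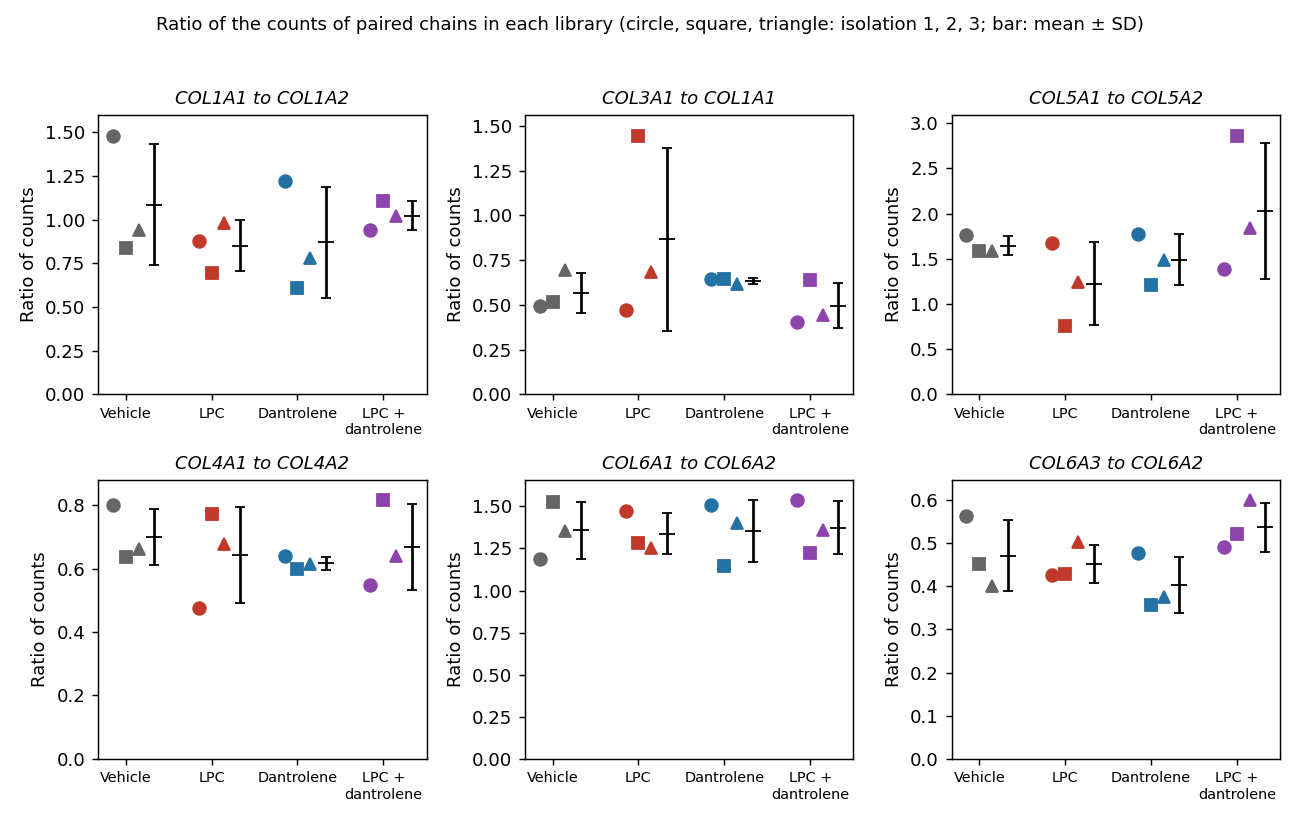
Ratios of the counts of paired collagen chains (y axis) in each library of the 4 groups (x axis), with bars for mean ± SD of 3 libraries. COL6A1 to COL6A2 stays between 1.15 and 1.54 in the 12 libraries, while the isolation 2 libraries of LPC and LPC + dantrolene set the lowest and highest values of COL5A1 to COL5A2.

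Genes that fold, modify and cross-link collagen, and collagen receptors, were followed as lists beside the chains. Of 18 genes for procollagen folding and modification, 2 rose with LPC compared to vehicle, beside 8.69% of all genes. PLOD2, a lysyl hydroxylase that sets the type of cross-link, went from 154 ± 31.8 to 421 ± 56.3 CPM (log2 fold change 1.45 ± 0.34, adjusted p = 0.0013, edgeR), and FKBP14, a prolyl isomerase of the endoplasmic reticulum, from 21.4 ± 2.73 to 51.3 ± 4.13 CPM (1.26 ± 0.35, adjusted p = 0.0079). PLOD2 was called in 19 of 19 alternatives and FKBP14 in 17 of 19, the latter not without vehicle isolation 2 or LPC isolation 2 (largest adjusted p = 0.0811). P4HA1, a prolyl 4-hydroxylase subunit, was the 1 gene of the list that fell with LPC + dantrolene compared to LPC, where 0.507% of all genes were called (−1.31 ± 0.34, adjusted p = 0.0464; 0.151 with the block). PLOD1 was the 1 of 18 that fell with dantrolene compared to vehicle, where 8.8% of all genes were called (−0.98 ± 0.33, adjusted p = 0.0464; 0.0878 with the block). P4HA1 and PLOD1 were each called in 6 of 19 alternatives.

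Of the 5 lysyl oxidase genes, which start cross-links between collagen molecules, LOXL1 and LOXL4 fell with dantrolene compared to vehicle, beside 8.8% of all genes called. LOXL4 went from 157 ± 44.1 to 66.5 ± 14.1 CPM (−1.24 ± 0.33, adjusted p = 0.0071; not called on total counts or without vehicle isolation 2, vehicle isolation 3 or dantrolene isolation 1, largest adjusted p = 0.0912) and LOXL1 from 336 ± 56.8 to 157 ± 58.4 CPM (−1.10 ± 0.34, adjusted p = 0.0229; 0.0592 with the block). LOXL4 was also lower with LPC + dantrolene than in vehicle, where 7.14% of all genes were called (−1.05 ± 0.33, adjusted p = 0.0339; 0.102 with the block). This LOXL4 change was called in 8 of 19 alternatives and not in DESeq2 (largest adjusted p = 0.488). LOXL1 with dantrolene was called in 12 of 19 (largest adjusted p = 0.258). None of the 3 export genes found and none of the 7 procollagen cleavage genes tested was called in any comparison. Between 0.0227% and 8.8% of all genes were called, so a count of 0 in lists this short is close to the background. Of 8 collagen receptors, 2 rose with LPC compared to vehicle, beside 8.69% of all genes called: DDR2, a receptor tyrosine kinase activated by fibrillar collagen, from 49.6 ± 10.0 to 106 ± 9.81 CPM (1.10 ± 0.33, adjusted p = 0.0189; called in 14 of 19 alternatives, not without vehicle isolation 2 or 3 or any LPC library, largest adjusted p = 0.144), and ITGA1, a collagen-binding integrin subunit, from 55.8 ± 19.1 to 112 ± 23.8 CPM (1.00 ± 0.33, adjusted p = 0.0377; 0.0551 with the block). ITGA1 was also the 1 receptor lower with LPC + dantrolene than with LPC, beside 0.507% of all genes, at 42.7 ± 15.3 CPM (−1.39 ± 0.33, adjusted p = 0.0202; 0.0722 with the block). ITGA1 was called in 13 of 19 alternatives for LPC against vehicle (largest adjusted p = 0.301). For LPC + dantrolene against LPC it was also called in 13 of 19 (largest adjusted p = 0.238).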

How the data were processed

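Poly-A mRNA libraries of paVICs (3 per group) were sequenced by the study. The authors deposited a table of whole-number counts per gene, batch-adjusted with ComBat and not scaled for depth. The labels list HISAT2 2.0.5, R 4.1.1, DESeq2 1.32.0 and the build Sscrofa11.1, whereas the paper names STAR as aligner. Strand setting and annotation release are not given in the sources used here. The batch is not named in the sources used here. The adjustment took up degrees of freedom that no test here allowed for, which can make p-values smaller than they should be. The authors' 4 tables of DESeq2 comparisons (mean level, log2 fold change with SE, Wald statistic, p-values) were not used.

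The deposited counts went into edgeR 4.0.16 (R 4.3.3): filterByExpr with the 4 groups, TMM scaling, and 1 quasi-likelihood model of all 12 libraries with group as the only term, 7 contrasts, Benjamini-Hochberg adjustment over 13216 genes. The script was tested on simulated data. Tests across groups of 3 for single values were exact permutation tests. A count of 3, the floor used here, is 0.114 to 0.186 CPM, which covers counting error only. Transcript lengths were not used here, so ranks, shares and ratios of genes are of ComBat-adjusted counts, not of transcripts.

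Levels in every library are given for COL1A1, COL1A2, COL3A1, the member with the most counts in each class and every called member. Others named are marked, except chains of the ratios and ends of ranges. The members, gene lists, tests and alternatives were chosen with earlier results of these data known. Gene positions were matched by symbol or identifier to RefSeq for 25 of 26 members, of which COL6A2 lies on an unplaced sequence.

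The labels give each library its primary isolation, which matches the replicate number, so libraries of the same number are pairs. Deviations from group means correlated between same-isolation libraries with a median of −0.152 (−0.536 to 0.207), against 0.108 for different isolations. Over the collagen members alone the same-isolation median was −0.394 (−0.767 to 0.601). Deviations cancel within a group, so the values for same and different isolations are tied to each other. If the batch was the isolation or its day, the adjustment itself shapes these correlations. Alternatives were DESeq2 1.42.0, RLE factors, total counts, the isolation block, a minimum of 10 counts per sample or no minimum, only the 2 groups compared, a threshold of 0.1, and leaving out every library in turn.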

Additional observations from a re-analysis of the deposited data

Results flagged for a closer look

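No collagen gene passed the test of the interaction, which asks whether the effect of LPC differed with and without dantrolene. Among the collagen-handling genes and cell markers described with them, 3 of 63 genes tested did, beside 4.65% of all genes (edgeR, Benjamini-Hochberg over all genes tested). PLOD2 rose with LPC in the absence of dantrolene and stood at 182 ± 83.8 CPM with LPC + dantrolene against 230 ± 52.4 CPM with dantrolene (interaction −1.79 ± 0.47 on the log2 scale, adjusted p = 0.0123; 0.0461 with the isolation block, and up to 0.116 without vehicle replicate 2, LPC replicate 2 or dantrolene replicate 2). ITGA1 stood at 42.7 ± 15.3 CPM with LPC + dantrolene against 68.7 ± 5.08 CPM with dantrolene (interaction −1.69 ± 0.46, adjusted p = 0.0171; 0.0418 with the block, and up to 0.114 without vehicle replicate 2 or 3, LPC replicate 2 or 3, or dantrolene replicate 2). LUM, a proteoglycan gene on the list of interstitial cell markers that binds collagen fibrils, was at 108 ± 34.8 CPM in vehicle, 276 ± 122 CPM with LPC, 326 ± 46.0 CPM with dantrolene and 277 ± 102 CPM with LPC + dantrolene (interaction −1.58 ± 0.48, adjusted p = 0.0367; 0.0978 with the block, and called in 12 of 18 alternatives).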

How the results depend on the processing

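No called collagen held under every alternative. For dantrolene against vehicle, where 2 collagens were called, total counts alone, at least 10 counts in every sample (which leaves both genes out), and the isolation as a replicate block each gave 0, and DESeq2 gave 1 (COL8A2). Leaving out 1 library gave 0 to 3: COL6A6 was lost without vehicle replicates 1 and 2, LPC replicate 2 or dantrolene replicate 1, and COL8A2 without vehicle replicates 2 and 3, LPC replicate 1 or any dantrolene library. For LPC + dantrolene against LPC, where COL11A1 was called, RLE size factors, total counts, the replicate block, only the 2 groups compared, and DESeq2 each gave 0. Leaving out 1 library gave 0 to 1, and COL11A1 was called in 5 of 19 alternatives. For LPC against vehicle the fit of only the 2 groups gave 1 (COL11A1). For LPC + dantrolene against vehicle and dantrolene against LPC, no filter gave 1 (COL6A6), and leaving out 1 library gave 0 to 1 in each: COL6A6 without LPC replicate 3 or dantrolene replicate 3 in the former and without vehicle replicate 3, dantrolene replicate 3 or LPC + dantrolene replicate 3 in the latter, and COL15A1 without LPC + dantrolene replicate 2 in the former. LPC + dantrolene against dantrolene and the interaction had 0 in every alternative. The block changed no other call of a collagen.

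Directions that turned belonged to changes that were not called. On total counts, COL3A1 with LPC was 0.073, and COL1A1 and COL1A2 with LPC + dantrolene against vehicle were 0.058 and 0.070. With 1 library left out, COL3A1 with LPC ran from −0.26 to 0.094, COL1A2 with LPC + dantrolene against vehicle from −0.32 to 0.079, COL1A2 with LPC + dantrolene against LPC from −0.089 to 0.26, and COL3A1 there from −0.68 to 0.049. Likewise COL3A1 with LPC + dantrolene against dantrolene ran from −0.28 to 0.52, COL1A1 with dantrolene against LPC from −0.48 to 0.075, and the COL3A1 interaction from −0.27 to 0.53. The −0.68, −0.28 and −0.27 of COL3A1 were without LPC + dantrolene replicate 2. The cause was not tested. Leaving the 10 genes with the most counts, 3 of them collagens, out of the shares gave 3.42% in vehicle, 3.15% with LPC, 3.06% with dantrolene and 3.52% with LPC + dantrolene. TMM-scaled library sizes gave 9.0% in vehicle, above the mean of every treated group. The order of vehicle and LPC + dantrolene thus turned with the scaling, and dantrolene no longer overlapped vehicle. Low counts limit the precision of COL8A2 (9 to 77 counts a library), COL9A3 (0 to 29) and COL17A1 (3 to 21).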
